A study of Mus musculus with 9 samples.

Results

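The Bcl2 family decides whether a cell under stress opens its outer mitochondrial membrane and dies. Its 10 members described here were taken by symbol from the gene table, where all 10 had an entry among 37224 genes, and all 10 passed the filter on low counts that left 18085 genes for testing. They fall into 4 survival genes (Bcl2, Bcl2l1, Bcl2l2 and Mcl1), the 2 effectors Bax and Bak1, and the 4 BH3-only genes Bcl2l11, Bbc3, Pmaip1 and Bid. The transcripts were measured in 3 kinds of C57BL/6 mouse cells, with 3 libraries each. iGABA cells had spent 14 days in vitro of conversion toward GABAergic interneurons, starting from passage 0 fibroblasts kept for 2 days in fibroblast medium and then in neuronal medium, and were sorted for GFP. The labels used here do not name the factors delivered for the conversion. GAD67 cells were cortical interneurons of E18.5 embryos, used as primary cells and also sorted for GFP, which in the design text marks GAD67. MEF cells were primary fibroblasts of E13.5 embryos at passage 0, detached with trypsin and not sorted. A shift of these cells to neuronal medium is mentioned in their labels, which leave unclear if RNA was taken before it.

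In healthy cells the survival proteins hold the effectors in check at the mitochondrial surface. BH3-only proteins sense stress and either occupy the survival proteins or act on the effectors directly, and BAX and BAK then form pores that release cytochrome c and start the caspase cascade. Young neurons depend on this balance, because many of them are removed by it during development and the remainder must last for life. Much of the control acts on the proteins, and counts per gene show neither that nor splice forms with opposite roles, such as the long and short forms made from Bcl2l1.

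The totals of the 9 libraries ran from 27501521 to 38975523 counts. In the interneuron marker list, 12 genes summed to 794 to 815 normalised CPM (counts scaled to the size of each library, with TMM factors between libraries) in iGABA, 5706 to 6025 in GAD67 and 10.1 to 12.2 in MEF libraries. The 12 fibroblast markers summed to 1007 to 1375, 211 to 224 and 87024 to 96476 in the same groups, and in iGABA cells all 12 interneuron markers lay below GAD67 levels and all 12 fibroblast markers above them. The 14 macrophage and other immune markers summed to 11.8 to 13.7 in iGABA, 7.66 to 9.72 in GAD67 and 613 to 661 in MEF libraries, with C1qa and Cx3cr1 at 0 in iGABA. All 14 were lower in iGABA and in GAD67 than in MEF libraries. The 10 markers of cycling cells summed to 232 to 460, 255 to 299 and 791 to 831. Markers of glutamatergic cortical neurons summed to 244 to 362 in iGABA, 1166 to 1206 in GAD67 and 40.2 to 44.4 in MEF libraries. Of these 10 markers, 3 were higher, 3 lower and 4 not called in iGABA against MEF. Their median log2 fold change there was 1.12, or 0.19 with genes at 0 counts set to a bound of 3 counts. Endothelial markers summed to 29.2 to 31.7 in iGABA, 18.2 to 62.9 in GAD67 and 249.5 to 266 in MEF libraries. Skeletal muscle markers summed to 8.24 to 8.98, 16.6 to 19.1 and 137 to 144 in the same groups. The endothelial sums do not stand for most genes of that list. In GAD67 against MEF, 5 of its 10 markers were higher, 2 lower and 3 not called (median log2 fold change 1.60). Pan-neuronal markers summed to 1223 to 1304 in iGABA, 8786 to 9234 in GAD67 and 109 to 111 in MEF libraries. Those of radial glia and astrocytes summed to 194 to 203, 139 to 149 and 73.0 to 81.1 in the same groups. Against the order of these sums, 2 of 9 tested glial markers were higher, 6 lower and 1 not called in iGABA against GAD67. Their median log2 fold change there was -1.47. The shares of all tested genes called in each comparison are given below. The part of these differences in cell make-up and cycling in the results below was not tested, and in bulk samples fewer cells of a type and less RNA per cell cannot be told apart. Among replicates, GAD67 libraries 8 and 9 were the pair that differed most, with a mean chi-square per gene of 30.1, against 2.49 to 13.2 in the other 8 pairs.

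Bcl2l1 was lowest in fibroblasts, higher in converted cells and highest in interneurons, while the 6 death genes among the members, and the survival gene Bcl2l2 with them, stood lowest in interneurons. Mcl1 and Bcl2 stood lowest in converted cells. Of the death genes, with TMM scaling, Bax, Bbc3 and Bcl2l11 in converted cells were within 1.18-fold of fibroblasts, and Bid stood above both other cell types. Bak1 was 2.02-fold and Pmaip1 1.84-fold lower in converted cells than in fibroblasts. Survival genes summed to 84.1 ± 2.69 normalised CPM per kilobase of gene model in iGABA, 93.8 ± 2.80 in GAD67 and 107 ± 2.86 in MEF libraries (SD, n = 3). The 6 death genes summed to 194 ± 6.62 in iGABA, 93.3 ± 6.08 in GAD67 and 197 ± 3.42 in MEF libraries. With scaling by library size alone, the survival sums were 96.8 ± 2.11 in iGABA, 94.3 ± 2.11 in GAD67 and 92.3 ± 2.68 in MEF libraries, which turns their order, and the death sums were 223 ± 5.24, 94.0 ± 6.55 and 169.7 ± 3.62, which puts iGABA above MEF. Bax alone made up 67.5% of the death sum per kilobase in iGABA, 80.5% in GAD67 and 56.5% in MEF libraries. With TMM scaling but no division by length, the death sums were 320, 132 and 352 CPM in the same groups. The survival sums were then 346, 383 and 426 CPM. Which set was the larger in iGABA and MEF libraries thus depends on the division by length. These sums describe members chosen with earlier results known and carry no test.

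**Figure D1:**
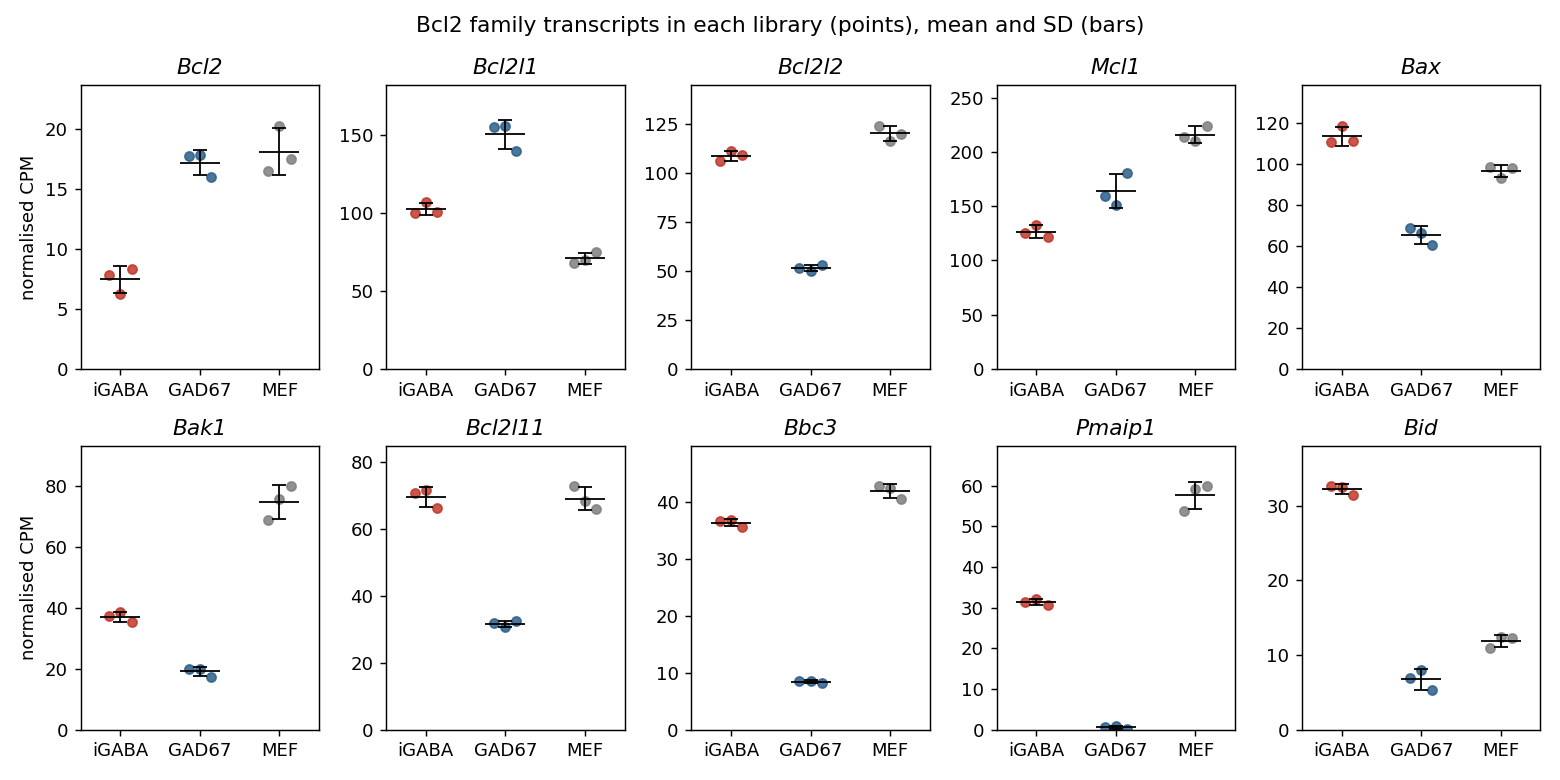
Normalised CPM (y axis, starting at 0) of the 10 members in iGABA, GAD67 and MEF libraries (x axis), with a point per library and the mean and SD as black bars. Pmaip1 lay under 1 CPM in the 3 GAD67 libraries, and Bid lay at 31.4 CPM or more in the 3 iGABA libraries.

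The 3 of 10 members that rose in iGABA against MEF cells, where 42.1% of all tested genes rose, were Bid, Bax and Bcl2l1. Their promoter windows, the 250 bases before the first RefSeq start site on the GRCm38.p6 build, are shown because these genes moved together there, and that of Bcl2l11 is shown beside them as the member whose level did not pass the test. Capitals mark GC boxes (GGGCGG) in any window, a FOXO motif (GTAAACA) in Bcl2l11 and a single p53 decamer in Bax, all searched on both strands.
Bid, minus strand, chr6:120916825-120917074: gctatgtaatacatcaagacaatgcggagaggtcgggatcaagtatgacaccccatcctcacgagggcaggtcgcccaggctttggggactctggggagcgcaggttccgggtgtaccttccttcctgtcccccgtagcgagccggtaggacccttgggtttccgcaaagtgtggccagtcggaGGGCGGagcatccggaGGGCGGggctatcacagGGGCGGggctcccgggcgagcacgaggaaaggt
Bax, minus strand, chr7:45466899-45467148: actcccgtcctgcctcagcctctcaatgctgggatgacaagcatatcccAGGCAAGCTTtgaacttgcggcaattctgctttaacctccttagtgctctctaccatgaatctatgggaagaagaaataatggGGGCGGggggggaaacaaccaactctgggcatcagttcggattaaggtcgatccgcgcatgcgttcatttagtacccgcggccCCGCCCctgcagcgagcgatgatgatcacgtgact
Bcl2l1, minus strand, chr2:152831729-152831978: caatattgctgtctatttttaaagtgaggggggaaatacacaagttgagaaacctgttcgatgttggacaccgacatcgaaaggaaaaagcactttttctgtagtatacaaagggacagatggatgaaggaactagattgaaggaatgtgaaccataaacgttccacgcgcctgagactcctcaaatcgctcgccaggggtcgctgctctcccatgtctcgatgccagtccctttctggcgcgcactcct
Bcl2l11, plus strand, chr2:128125788-128126037: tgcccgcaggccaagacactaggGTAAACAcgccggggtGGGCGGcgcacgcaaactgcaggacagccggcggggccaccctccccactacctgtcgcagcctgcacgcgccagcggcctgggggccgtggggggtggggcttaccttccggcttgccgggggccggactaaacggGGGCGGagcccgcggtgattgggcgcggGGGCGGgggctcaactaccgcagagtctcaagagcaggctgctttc

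The windows differed in base composition, with 63.6% G and C in Bid, 54.0% in Bax, 47.6% in Bcl2l1 and 72.0% in Bcl2l11, against a median of 52.4% over 32851 windows of the same length. Bid held 3 GC boxes, Bax 2 and Bcl2l11 3, and 32.7% of all windows held at least 1. The FOXO letters were in 3.17% of windows and a p53 decamer in 7.13%. The letters searched also included CREB (TGACGTCA, 1.55% of windows), E2F (TTTGGCGC or TTTCCCGC, 1.30%), AP-1 (TGAGTCA, 4.46%) and the TATA box (TATAAA, 12.4%), which were in none of these 4 windows. The Bcl2l1 window held none of the motifs, which says only that these letters are not in it. No marked motif overlapped another. Further start sites are known for Bcl2l1 and Bcl2l11, and the window at start site 2 of Bcl2l11 held no FOXO motif. Which start these cells used was not tested. The Bid window reaches into the counted Bid model, which spans 120891930 to 120916853.

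Among the survival genes, Bcl2l1 (ENSMUSG00000007659, mm10 chromosome 2, 152780668 to 152831728, minus strand) encodes BCL-xL, the survival protein that maturing neurons rely on. It had 99.9, 107 and 101 normalised CPM in iGABA, 156, 156 and 140.0 in GAD67, and 68.2, 70.1 and 75.0 in MEF libraries. The 3 groups were separate, with interneurons highest and fibroblasts lowest. The log2 fold change of Bcl2l1 was 0.53 ± 0.061 (SE) for iGABA against MEF, 1.08 ± 0.061 for GAD67 against MEF and -0.55 ± 0.060 for iGABA against GAD67, with adjusted p of 3.20e-06, 1.51e-09 and 1.92e-06 in edgeR's quasi-likelihood test with Benjamini-Hochberg adjustment over all tested genes.

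Mcl1 (ENSMUSG00000038612, chromosome 3, 95658721 to 95663176, plus strand) encodes a survival protein with a short life that progenitors and newborn neurons need. It was the most abundant survival transcript per kilobase in every group and followed another order from Bcl2l1. Mcl1 had 126, 133 and 121 normalised CPM in iGABA, 159.5, 151 and 181 in GAD67, and 214, 209.8 and 224 in MEF libraries. No library of a group reached into another, and converted cells were lowest. The log2 fold change was -0.77 ± 0.068 for iGABA against MEF (edgeR, adjusted p = 2.24e-07), -0.40 ± 0.068 for GAD67 against MEF (edgeR, adjusted p = 0.000100) and -0.37 ± 0.068 for iGABA against GAD67 (edgeR, adjusted p = 0.000226).

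Bcl2 (ENSMUSG00000057329, chromosome 1, 106538178 to 106714274, minus strand), the founding survival gene, fell in converted cells. It had 7.82, 6.21 and 8.32 normalised CPM in iGABA, 17.8, 17.8 and 15.96 in GAD67, and 16.5, 20.3 and 17.5 in MEF libraries. The iGABA libraries lay apart below the rest, and GAD67 and MEF libraries overlapped. Bcl2 was 2.44-fold lower in iGABA than in MEF cells (log2 fold change -1.29 ± 0.12, edgeR, adjusted p = 4.21e-07) and 2.31-fold lower than in GAD67 cells (log2 fold change -1.21 ± 0.12, edgeR, adjusted p = 7.48e-07). For GAD67 against MEF the log2 fold change was -0.076, with a 95% interval of -0.32 to 0.17 (edgeR, adjusted p = 0.544).

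Bcl2l2 (ENSMUSG00000089682, chromosome 14, 54883377 to 54888234, plus strand) encodes BCL-w, a survival protein also found in adult neurons. It had 106, 111 and 109 normalised CPM in iGABA, 51.3, 49.95 and 53.3 in GAD67, and 124, 117 and 120.3 in MEF libraries. Interneurons thus carried the lowest level, 2.34-fold below MEF (log2 fold change -1.23 ± 0.052, edgeR, adjusted p = 6.64e-11), and iGABA cells stood 2.11-fold above them (1.08 ± 0.051, edgeR, adjusted p = 3.96e-10). The small fall in iGABA against MEF cells, -0.15 ± 0.050 on the log2 scale (edgeR, adjusted p = 0.0167), did not pass without iGABA replicate 4 (edgeR, adjusted p = 0.0932) or without the low-count filter (edgeR, adjusted p = 0.0836), the other alternatives in that direction giving DESeq2's 0.000767 up to 0.0493, and turned to 0.27 with scaling by library size alone. Of its model, 594 bases (13.3%) are shared with Gm20521 on the same strand, which stood at 281 ± 6.51 CPM in iGABA, 321 ± 7.20 in GAD67 and 134 ± 12.1 in MEF libraries, and how shared reads were assigned is not given in the sources used here.

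Per kilobase, the make-up of the survival transcripts differed between the cell types. Mcl1 took 43.1% ± 0.813 of the summed level of the 4 genes in iGABA, 50.1% ± 3.27 in GAD67 and 57.9% ± 0.469 in MEF libraries (SD, n = 3). Bcl2l1 took 26.6% ± 0.236 in iGABA, 35.1% ± 3.08 in GAD67 and 14.5% ± 0.453 in MEF libraries. Bcl2l2 took 29.0% ± 0.602, 12.3% ± 0.0406 and 25.2% ± 0.876 in the same groups, and Bcl2 between 1.24% and 2.55% in the mean of each. Shares between genes rest on the length of each gene model in the deposited table, which counts every annotated exon and can exceed the transcript in use.

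**Figure D2:**
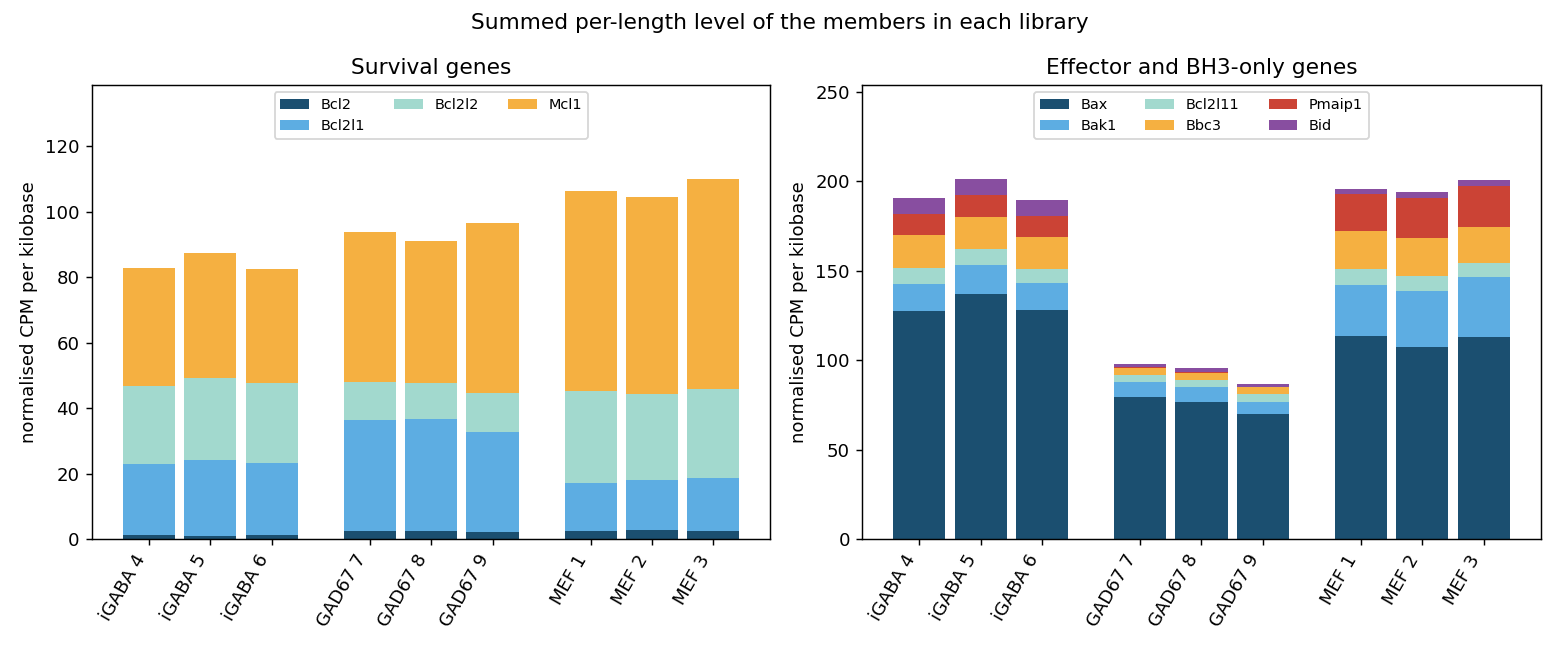
Summed normalised CPM per kilobase (y axis) of the survival genes (left) and of the effector and BH3-only genes (right) in each library (x axis), with colours for the genes. Bcl2l1 and Mcl1 together fill most of the survival bars in every group. The GAD67 death bars stay under 100 against at least 189 in iGABA and MEF libraries.

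Of the effectors, Bax (ENSMUSG00000003873, chromosome 7, 45461695 to 45466898, minus strand), the pore former that waits in the cytosol, had 111, 119 and 111 normalised CPM in iGABA, 68.9, 66.5 and 60.5 in GAD67, and 98.6, 93.1 and 98.2 in MEF libraries. The groups did not overlap, with converted cells highest and interneurons lowest. Bax rose 1.18-fold in iGABA against MEF (log2 fold change 0.23 ± 0.060, edgeR, adjusted p = 0.00274), stood 1.48-fold lower in GAD67 than in MEF (-0.56 ± 0.060, edgeR, adjusted p = 1.20e-06), and was 1.74-fold higher in iGABA than in GAD67 cells (0.80 ± 0.060, edgeR, adjusted p = 4.44e-08). Per kilobase it was the most abundant death transcript in all 3 groups, at 131 ± 5.27 in iGABA, 75.2 ± 5.03 in GAD67 and 111 ± 3.51 in MEF libraries. Its model of 869 bases is the shortest of the members.

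Bak1 (ENSMUSG00000057789, chromosome 17, 27019810 to 27029009, minus strand) encodes BAK, the effector that sits in the mitochondrial membrane and that mature neurons are known to make little of as full-length protein. It had 37.1, 38.6 and 35.2 normalised CPM in iGABA, 19.8, 20.02 and 17.4 in GAD67, and 68.8, 75.5 and 79.8 in MEF libraries. In the converted cells it was 2.02-fold below MEF (log2 fold change -1.01 ± 0.073, edgeR, adjusted p = 2.59e-08). In GAD67 cells it stood 3.91-fold below MEF (-1.97 ± 0.076, edgeR, adjusted p = 2.73e-11), and iGABA cells were 1.94-fold above GAD67 (0.95 ± 0.076, edgeR, adjusted p = 7.92e-08). Ggnbp1, on the opposite strand over 357 bases of its model, ran the other way, at 35.8 ± 1.92 in iGABA, 49.3 ± 5.21 in GAD67 and 13.6 ± 0.739 CPM in MEF libraries.

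The BH3-only genes showed the widest range of differences. Pmaip1 (ENSMUSG00000024521, chromosome 18, 66458604 to 66465550, plus strand) encodes NOXA, a p53-responsive protein that binds MCL1. It had 31.4, 32.1 and 30.6 normalised CPM in iGABA, 0.639, 0.875 and 0.169 in GAD67, and 53.8, 59.1 and 59.8 in MEF libraries. The interneuron values rest on 25, 33 and 6 counts, and each lay far below every other library. Pmaip1 was 54.8-fold higher in iGABA than in GAD67 cells (log2 fold change 5.78 ± 0.20, edgeR, adjusted p = 1.98e-11) and 101-fold lower in GAD67 than in MEF cells (-6.65 ± 0.20, edgeR, adjusted p = 2.08e-12), the largest difference of any member. Without GAD67 replicate 9, whose count was the lowest, these log2 fold changes were 5.36 and -6.23. In iGABA against MEF cells it fell 1.84-fold (-0.88 ± 0.12, edgeR, adjusted p = 2.42e-05).

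Bbc3 (ENSMUSG00000002083, chromosome 7, 16309616 to 16318205, plus strand) encodes PUMA, a p53 target that binds every survival protein and is a main driver of death in injured neurons. It had 36.5, 36.8 and 35.6 normalised CPM in iGABA, 8.56, 8.59 and 8.13 in GAD67, and 42.7, 42.4 and 40.5 in MEF libraries. Interneurons again stood apart at the bottom, 4.96-fold below MEF (log2 fold change -2.31 ± 0.064, edgeR, adjusted p = 8.86e-13). iGABA cells were 4.31-fold above GAD67 (2.11 ± 0.064, edgeR, adjusted p = 4.14e-12). Against MEF, Bbc3 was 1.152-fold lower in iGABA cells (-0.20 ± 0.058, edgeR, adjusted p = 0.00536), a direction that turned to 0.21 with scaling by library size alone.

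Bid (ENSMUSG00000004446, chromosome 6, 120891930 to 120916853, minus strand) encodes the protein that caspase-8 cleaves to link death receptors to the mitochondria. It had 32.6, 32.5 and 31.4 normalised CPM in iGABA, 6.97, 7.93 and 5.25 in GAD67, and 10.9, 12.5 and 12.2 in MEF libraries. The converted cells exceeded both other cell types in every library. Bid rose 2.71-fold in iGABA against MEF (log2 fold change 1.44 ± 0.12, edgeR, adjusted p = 1.05e-07) and stood 4.78-fold above GAD67 (2.26 ± 0.12, edgeR, adjusted p = 1.54e-09), while GAD67 was 1.76-fold below MEF (-0.82 ± 0.13, edgeR, adjusted p = 4.42e-05). Its relative Bcl2l13 lies on the opposite strand over 628 bases (17.7% of the Bid model) and had 74.6 ± 4.96 CPM in iGABA, 64.9 ± 0.750 in GAD67 and 56.0 ± 1.60 in MEF libraries.

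Bcl2l11 (ENSMUSG00000027381, chromosome 2, 128126038 to 128162547, plus strand) encodes BIM, which neurons induce when trophic factors are withdrawn. It had 70.9, 71.6 and 66.2 normalised CPM in iGABA, 31.8, 30.8 and 32.6 in GAD67, and 72.8, 68.4 and 65.9 in MEF libraries. iGABA and MEF libraries overlapped, and GAD67 libraries lay below both. For iGABA against MEF the log2 fold change was 0.012, with a 95% interval of -0.11 to 0.14 (edgeR, adjusted p = 0.851), and with scaling by library size alone it was 0.43 (edgeR, adjusted p = 2.04e-05). Bcl2l11 was 2.19-fold higher in iGABA than in GAD67 cells (1.13 ± 0.059, edgeR, adjusted p = 9.63e-10) and 2.18-fold lower in GAD67 than in MEF cells (-1.12 ± 0.059, edgeR, adjusted p = 7.03e-10).

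Together the 4 BH3-only genes summed to 47.7 ± 1.12 normalised CPM per kilobase in iGABA, 10.3 ± 0.535 in GAD67 and 54.5 ± 0.880 in MEF libraries (SD, n = 3). With scaling by library size alone they were 54.9 ± 0.797 in iGABA, 10.3 ± 0.610 in GAD67 and 47.0 ± 0.567 in MEF libraries, so which of iGABA and MEF is higher depends on the scaling, while the shares within a library do not. Pmaip1 took 24.9% ± 0.151 of the sum in iGABA, 2.02% ± 1.24 in GAD67 and 39.9% ± 1.88 in MEF libraries. Bid took 19.0% ± 0.119 in iGABA, 18.4% ± 2.82 in GAD67 and 6.12% ± 0.363 in MEF libraries. Bbc3 took 37.9% ± 0.239, 40.97% ± 0.958 and 38.2% ± 1.28 in the same groups, and Bcl2l11 18.2% ± 0.348, 38.6% ± 3.11 and 15.8% ± 0.965. The shares depend on the lengths, and the Bcl2l11 model of 8029 bases is the longest: on counts not divided by length, Bcl2l11 took 41.1% ± 0.561 in iGABA, 66.9% ± 3.40 in GAD67 and 38.3% ± 1.86 in MEF libraries, the largest share of the 4 genes in each group.

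Over the whole family, 9 of 10 members were called in iGABA against MEF cells, where 81.9% of all tested genes were called in either direction. Of the members, 3 were higher (42.1% of all genes) and 6 lower (39.7% of all genes), and with scaling by library size alone 6 were higher and 4 lower. The shares of all genes in this paragraph belong to the TMM fit. Those under library size alone are not given, so the members called with it have no background beside them. With library size alone the median over all genes in iGABA against MEF shifted to 0.46 on the log2 scale, against 0.047 in the fit reported here. Every log2 fold change of this comparison thus holds relative to the scaling used, in size for all members. For the small differences of Bax, Bbc3, Bcl2l2 and Bcl2l11 the shift exceeds the difference itself. With library size alone the median over all genes was also 0.22 in GAD67 against MEF and 0.22 in iGABA against GAD67. The size of the differences in these comparisons thus holds relative to the scaling too. In GAD67 against MEF cells, 9 of 10 were called, with a background of 86.9%, and 8 were lower (43.8% of all genes) and 1 higher (43.1%). In iGABA against GAD67 cells all 10 were called, with a background of 80.6%, 7 higher (41.3% of all genes) and 3 lower (39.3%). Being called was common among all genes, so these counts are no result about the family, and the comparisons against MEF share the MEF libraries. The median log2 fold change of the members was -0.18 for iGABA against MEF (0.047 over all genes), -0.97 for GAD67 against MEF (0.0016 over all genes) and 1.02 for iGABA against GAD67 (0.022 over all genes). In size, the median absolute log2 fold change was 0.65 for iGABA against MEF, 1.102 for GAD67 against MEF and 1.11 for iGABA against GAD67, beside 0.97, 1.39 and 0.94 over all genes.

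**Figure D3:**
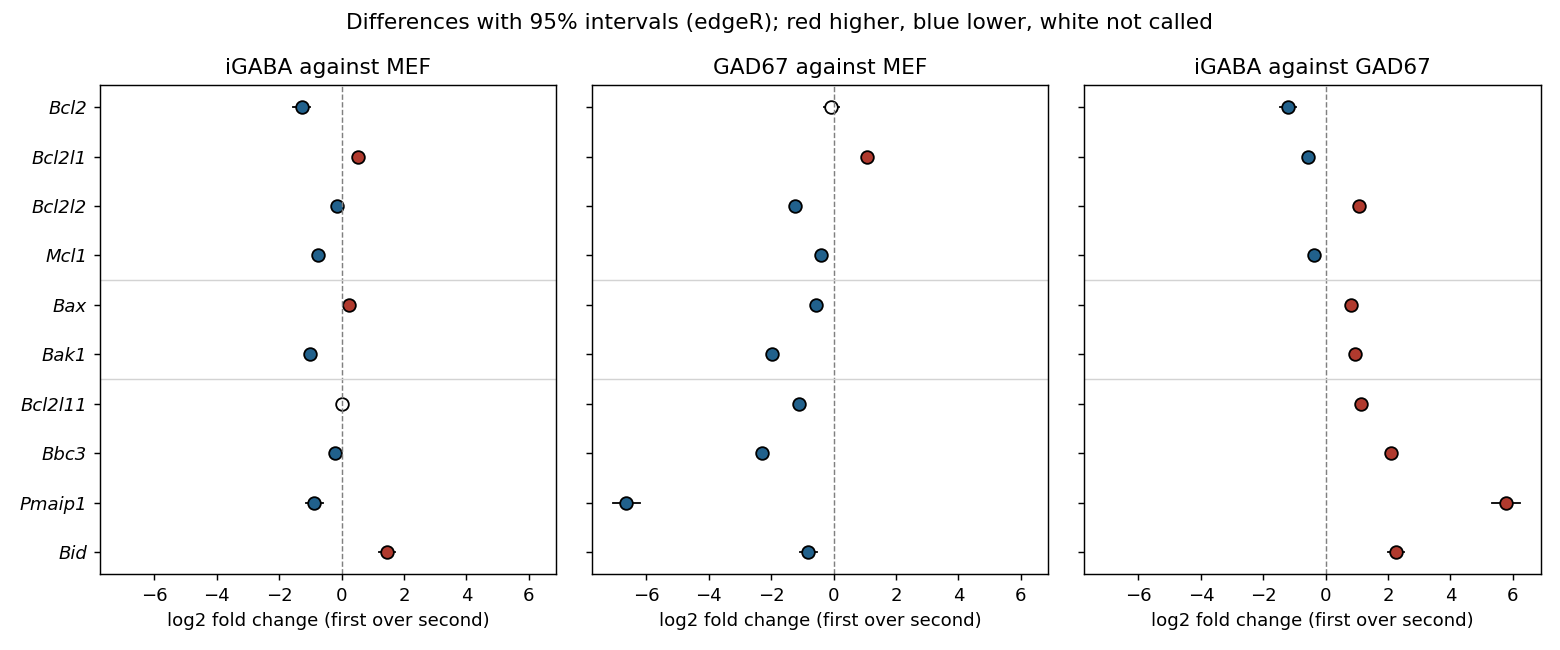
Log2 fold change (x axis) of each member (y axis, survival genes at the top, then effectors, then BH3-only genes) in the 3 comparisons, with 95% intervals from edgeR as black lines. The intervals were derived from the log2 fold change and F statistic of the edgeR test. In iGABA against GAD67 cells the 6 death genes and Bcl2l2 lie to the right of 0, and Pmaip1 lies at 5.78.

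Other Bcl2 relatives had 13 listed genes, 11 in the table and 8 that passed the filter. Of these, 4 rose, 3 fell and 1 did not pass in iGABA against MEF, 6 were higher and 2 lower in GAD67 against MEF, and 2 were higher, 4 lower and 2 did not pass in iGABA against GAD67. The median log2 fold changes were 0.23, 0.57 and -0.82, the last -0.16 with Bcl2a1b, at 0 in iGABA, set to its bound. Bcl2a1b is among the 4 genes lower in iGABA than in GAD67. Its call there rests on 0 counts against 4 over each whole group, with libraries that overlap. Hrk, a BH3-only gene of neurons, was higher in both neuronal cell types than in MEF cells. It had 17.4 to 20.4 normalised CPM in iGABA, 12.2 to 19.8 in GAD67 and 0.0987 to 0.330 in MEF libraries, a log2 fold change of 6.45 ± 0.29 for iGABA against MEF (edgeR, adjusted p = 2.01e-10) and of 0.18, with a 95% interval of -0.17 to 0.52, for iGABA against GAD67 (edgeR, adjusted p = 0.322).

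Bik and Bmf, also BH3-only genes, set the converted cells apart from interneurons in opposite directions. Bik, known for acting at the endoplasmic reticulum, had 7.81 ± 0.570 CPM in iGABA, 0.0986 ± 0.0809 in GAD67 and 0.393 ± 0.0553 in MEF libraries (SD, n = 3). It rose in iGABA against MEF (log2 fold change 4.29 ± 0.24, edgeR, adjusted p = 2.11e-09) and stood above GAD67 (6.27 ± 0.29, edgeR, adjusted p = 3.10e-10). The GAD67 level rests on 1 to 7 counts a library, and without GAD67 replicate 8 the second of these was 7.09. Bmf, tethered to the cytoskeleton until released, had 1.65 ± 0.143 CPM in iGABA, 37.7 ± 6.36 in GAD67 and 24.7 ± 0.992 in MEF libraries, 14.9-fold lower in iGABA than in MEF (-3.90 ± 0.14, edgeR, adjusted p = 2.58e-11) and 22.7-fold lower than in GAD67 cells (-4.51 ± 0.14, edgeR, adjusted p = 5.58e-12).

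**Figure D4:**
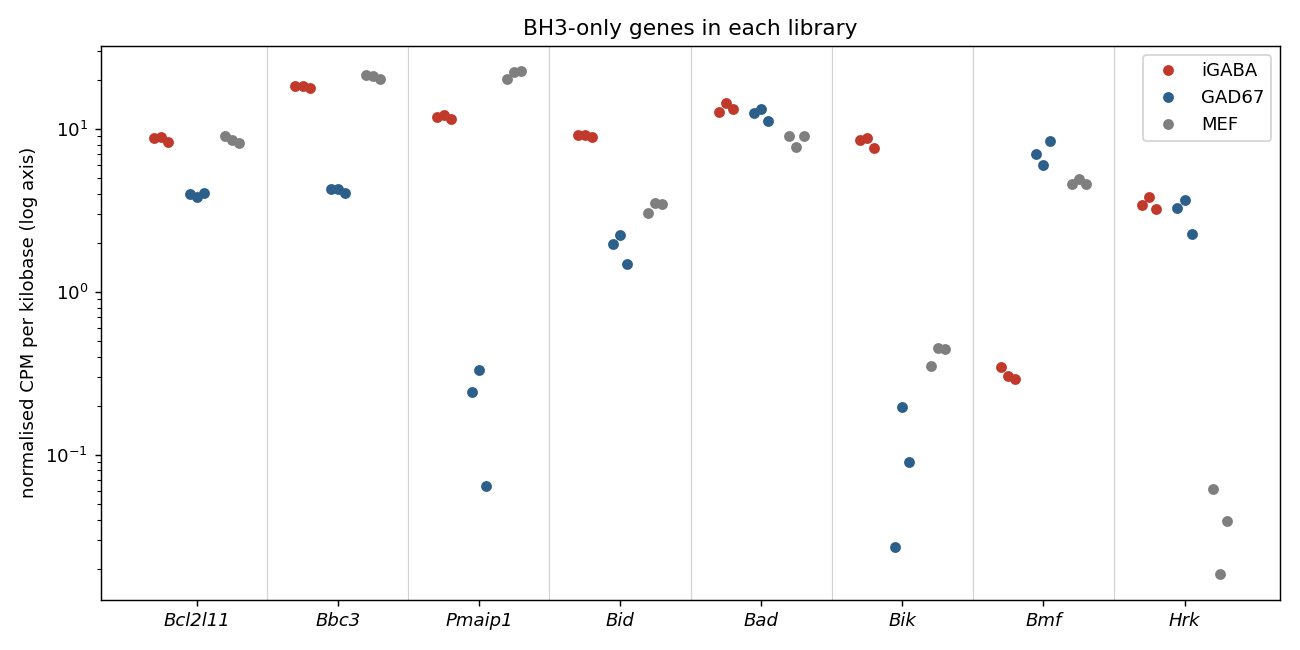
Normalised CPM per kilobase (y axis, log scale) of 8 BH3-only genes (x axis) in each library, coloured by group. Pmaip1 and Bik are near the bottom in GAD67 libraries, Bmf in iGABA libraries and Hrk in MEF libraries.

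Bad, the BH3-only protein that survival kinases switch off, was higher than in MEF cells in iGABA (0.65 ± 0.091, edgeR, adjusted p = 2.02e-05) and in GAD67 (0.52 ± 0.091, edgeR, adjusted p = 0.000123) cells, and shares 517 bases with Gpr137 on the opposite strand. Bok, a relative of the effectors, had 12.8 ± 1.12 CPM in iGABA, 43.2 ± 5.34 in GAD67 and 27.6 ± 1.20 in MEF libraries, and fell in iGABA against MEF (-1.11 ± 0.10, edgeR, adjusted p = 2.44e-07). Bcl2l13, a mitochondrial relative, rose 1.33-fold in iGABA against MEF (edgeR, adjusted p = 2.13e-05). Bcl2a1b, a survival gene of blood cells with near-identical copies that leave its count uncertain, had no count in the 3 iGABA libraries, against 3.95 to 4.08 CPM in MEF libraries, at least 154-fold lower by a floor of 3 counts over the group. It also shares 401 bases with Mthfs on the same strand. The immune markers given above moved with it. Bcl2l15 stayed under 1 CPM in every library.

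Counts of called genes in the apoptosis lists are read beside the shares over all tested genes, which were 42.1% higher and 39.7% lower in iGABA against MEF, 43.1% and 43.8% in GAD67 against MEF, and 41.3% and 39.3% in iGABA against GAD67. None of these counts was tested against that background, and the same holds for the relatives above. Outside the family, the death receptor list had the lowest median of the 7 lists in GAD67 against MEF cells. Of 9 tested death receptor and adaptor genes, 8 were higher and 1 lower in iGABA against GAD67 cells, with a median of 1.92 on the log2 scale, and 7 were lower, 1 higher and 1 did not pass in GAD67 against MEF, with a median of -2.82. In iGABA against MEF, 7 fell, 1 rose and 1 did not pass, with a median of -0.74. Fas, the receptor of Fas ligand, had 1.07 ± 0.295 CPM in iGABA and 37.5 ± 1.12 in MEF libraries (log2 fold change -5.16 ± 0.16, edgeR, adjusted p = 5.26e-12), and 3 counts in all over the GAD67 libraries, a ratio of 39.0 for iGABA over GAD67 (exact 95% counting interval 13.02 to 192). Tnfrsf10b, a receptor of the ligand TRAIL, had 38.9 ± 1.32 CPM in iGABA, 0.703 ± 0.301 in GAD67 and 84.6 ± 2.16 in MEF libraries. Caspase-8, which these receptors activate and which cuts BID, followed the same order: Casp8 had 6.31 ± 0.623 CPM in iGABA, 0.270 ± 0.111 in GAD67 and 28.4 ± 2.26 in MEF libraries.

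Downstream of the mitochondria, 9 of 15 genes of caspases and the apoptosome rose and 6 fell in iGABA against MEF, with a median log2 fold change of 0.40. In GAD67 against MEF 8 were higher, 6 lower and 1 did not pass (median 0.21), and in iGABA against GAD67 8 were higher, 6 lower and 1 did not pass (median 0.17). Casp2, an initiator caspase, had 68.7 ± 2.21 CPM in iGABA, 126 ± 6.76 in GAD67 and 28.3 ± 0.916 in MEF libraries. Aifm1, a mitochondrial flavoprotein, had 87.0 ± 2.30, 33.9 ± 2.94 and 30.3 ± 1.93 CPM in the same groups and rose 2.88-fold in iGABA against MEF (edgeR, adjusted p = 3.15e-10). Cycs, the cytochrome c gene, has many near-identical copies and its count is uncertain.

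Of 6 tested genes in the inhibitor of apoptosis list, 2 rose, 3 fell and 1 did not pass in iGABA against MEF (median log2 fold change -0.81), 2 were higher and 4 lower in GAD67 against MEF (median -1.16), and 2 were higher, 2 lower and 2 did not pass in iGABA against GAD67 (median 0.041). Xaf1, an interferon-induced antagonist of XIAP, had 0.282 ± 0.112 CPM in iGABA, 0.0815 ± 0.0486 in GAD67 and 26.0 ± 1.33 in MEF libraries. Birc3, a ligase in inflammatory signalling, had 0.580 ± 0.213, 0.692 ± 0.109 and 11.4 ± 0.381 CPM in the same groups, and its relative Birc2 had 60.8 ± 3.96, 96.8 ± 10.1 and 47.1 ± 4.30 CPM.

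The gene of p53 itself passed the test in none of the comparisons, and several of its known targets did. Trp53 had 70.3 to 76.9 CPM in iGABA, 67.6 to 79.7 in GAD67 and 68.9 to 75.5 in MEF libraries, with 95% intervals of the log2 fold change of -0.15 to 0.15 for iGABA against MEF and -0.18 to 0.12 for iGABA against GAD67. Of the 12 genes in the p53 list, 4 rose, 6 fell and 2 did not pass in iGABA against MEF (median -0.22), 3 were higher, 8 lower and 1 did not pass in GAD67 against MEF (median -1.82), and 6 were higher, 4 lower and 2 did not pass in iGABA against GAD67 (median 0.20). Cdkn1a, the cell cycle inhibitor p21, had 515 to 551 CPM in iGABA, 5.14 to 8.78 in GAD67 and 326 to 354 in MEF libraries, and was 80.9-fold higher in iGABA than in GAD67 cells (6.34 ± 0.15, edgeR, adjusted p = 3.94e-13). Sesn2, a stress-induced regulator of growth, was 49.8-fold higher in iGABA than in GAD67 cells (5.64 ± 0.078, edgeR, adjusted p = 8.91e-15). Gadd45a and Perp, also p53 targets, fell in the converted cells, with log2 fold changes against MEF of -6.24 ± 0.13 (edgeR, adjusted p = 9.82e-14) and -5.47 ± 0.24 (edgeR, adjusted p = 1.86e-10). Gadd45a shares 337 bases with a gene on the opposite strand.

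Among regulators of BH3-only genes, 7 of 11 rose and 4 fell in iGABA against MEF (median log2 fold change 1.04). In GAD67 against MEF 6 were higher, 4 lower and 1 did not pass (median 0.41), as in iGABA against GAD67 (median 0.41). Mapk10, which encodes the neuronal kinase JNK3, had 12.96 ± 1.34 CPM in iGABA, 354 ± 23.9 in GAD67 and 0.182 ± 0.0964 in MEF libraries. Mapk8ip1, a JNK scaffold, had 167 ± 9.72, 196 ± 9.78 and 16.9 ± 0.271 CPM in the same groups. E2f1, a cell cycle factor that can induce death genes, had 42.3 ± 2.19, 10.6 ± 1.25 and 30.7 ± 0.685 CPM.

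Partners and turnover factors of the family split, with 6 of 16 higher, 9 lower and 1 that did not pass in iGABA against MEF (median log2 fold change -0.26), 9 higher, 6 lower and 1 that did not pass in GAD67 against MEF (median 0.40), and 6 higher, 6 lower and 4 that did not pass in iGABA against GAD67 (median -0.0087). Trim17, a ligase known from mouse neurons to mark MCL1 for breakdown, had 84.3 to 91.7 CPM in iGABA, 54.5 to 86.0 in GAD67 and 6.71 to 7.13 in MEF libraries; 24.0% of its model is shared with other genes. Dynll2, the dynein light chain that holds BMF, had 591 ± 18.6 CPM in iGABA, 564 ± 15.8 in GAD67 and 154 ± 7.15 in MEF libraries. Bag3, a co-chaperone of stressed cells, had 49.8 ± 2.22, 0.278 ± 0.0908 and 91.8 ± 5.65 CPM in the same groups. Bnip3, a mitophagy receptor induced by low oxygen, had 61.5 ± 2.06, 11.5 ± 1.86 and 30.8 ± 2.74 CPM.

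**Figure D5:**
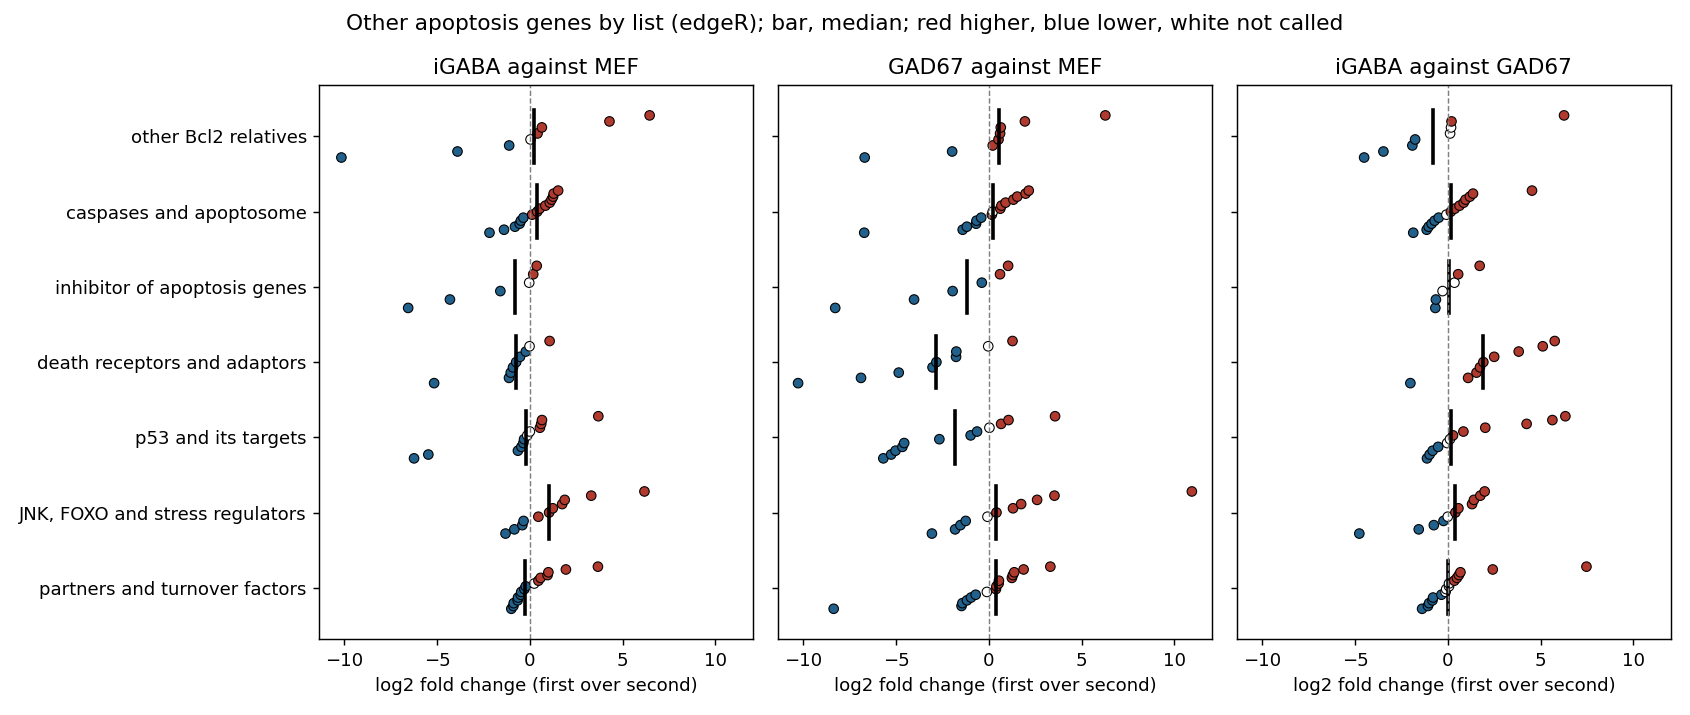
Log2 fold change (x axis) of the tested genes in 7 other apoptosis lists (y axis) in the 3 comparisons, with black bars at list medians and colours for edgeR calls. In the death receptor list, 8 of 9 genes lie to the right of 0 in iGABA against GAD67 cells.

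Patterns over the 9 libraries were compared between each member and the 77 tested genes of the other apoptosis lists, as the root-mean-square distance between log2 CPM values (pseudocount 0.1) centred on each gene's mean. The 9 libraries are 3 groups of replicates, and the distances are descriptions with no test. The closest match was Bag6, a co-chaperone, to Bcl2l1, at a distance of 0.13. Zmat3, a p53 target, was nearest to Bbc3 (0.20), Tnfrsf10b to Pmaip1 (0.34) and Bnip3 to Bid (0.36). Apaf1 was nearest to Bcl2 (0.30), Htra2 to Mcl1 (0.17), Xiap to Bax (0.13) and Tmbim6 to Bak1 (0.22). Trp53inp1 was nearest to Bcl2l2 (0.18) and to Bcl2l11 (0.19).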

How the data were processed

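Total RNA of 9 samples, 3 per group, was sequenced from strand-marked libraries made by the dUTP method, per the labels' protocols. The deposited table held raw whole-number counts of reads for every gene and library, with gene models and lengths. BWA 0.7.2, featureCounts, DESeq 1.10.1 and mm10 are named in the submitters' processing notes. How each was used, which annotation release and which strand setting is not given in the sources used here, so reads of genes that overlap another cannot be assigned with certainty. No label tells if replicates came from different cultures or animals. The p-values thus reflect only the spread of these libraries, and that spread may be technical.

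Symbols were found for 35449 of 37224 genes (95.2%) in GENCODE vM21, and 99.8% of those overlapped their vM21 position. Bcl2a1a and Bcl2a1d of the lists were not analysed here. Counts were analysed in R 4.3.3 with edgeR 4.0.16: filterByExpr (minimum count 10, minimum total 15), TMM (trimmed mean of M-values) scaling, and the quasi-likelihood test in 1 fit over the 9 libraries, with Benjamini-Hochberg adjustment over 18085 genes. Standard errors of log2 fold changes are not an output of that test. They were derived as the absolute log2 fold change over the square root of its F statistic. The 95% intervals used these errors and the t distribution. A gene rose, fell, or was higher, lower or called at an adjusted p under 0.05. Values are normalised CPM, or CPM per kilobase of the deposited gene length. The shared biological coefficient of variation was 7.91%. Alternatives were RLE size factors, library size alone, no low-count filter, DESeq2 1.42.0, fits of the 2 groups compared, and leaving out each library. The method was also run on simulated counts in which only a small part of the genes changed. That run does not test the scaling between groups that differ in most genes, as these do. The floor behind a 0 was 3 counts, or 0.0770 to 0.109 CPM by library before TMM scaling. The bound of Bcl2a1b set 3 counts over the whole group instead. Floors and ratio intervals cover counting error only.

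The members and lists were chosen with earlier results of these data known. Named genes were the 10 members, the tested relatives, in each other list the 2 called genes with the largest log2 fold change in each comparison, and the gene nearest in pattern to each member. Trp53 was named in addition, after its values were seen, as the gene its list is called after, as were Cycs and the genes that overlap a member. A gene that the rule also names is not reported here. Promoter windows came from RefSeq (GRCm38.p6).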

Additional observations from a re-analysis of the deposited data

How the results depend on the processing

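No paired analysis was possible because the groups share no replicate numbers. Of 420 values of the members' log2 fold changes under the alternatives, 408 kept their direction and their side of the threshold, 9 changed direction, 2 lost their call and 1 gained one. The number of members called in either direction stayed within 1.5 times that reported under every alternative run. With library size alone, the direction turned for Bbc3 (0.21) and Bcl2l2 (0.27) in iGABA against MEF and for Bcl2 in GAD67 against MEF (0.15, not called), and the members called higher in iGABA against MEF numbered 6, against 3, and the genes of the other apoptosis lists called lower there 24, against 38. The shares of all genes called under that scaling are not given beside these counts. Bcl2l11 in iGABA against MEF, not called, changed sign with RLE size factors (-0.025), DESeq2 (-0.013) and single libraries left out (lowest -0.023, highest 0.052). Bcl2 in GAD67 against MEF, not called, ran from -0.13 to 0.021 with single libraries left out. Bcl2l15 in iGABA against MEF was -0.040 with DESeq2 and ran from -0.44 to 0.88 with single libraries left out, Birc3 in iGABA against GAD67 from -0.48 to 0.025, and Hrk in iGABA against GAD67 from -0.011 to 0.32, none of them called. Bcl2l2 in iGABA against MEF lost its call without the low-count filter (edgeR, adjusted p = 0.0836). When counts were not divided by length, 40 shares moved by more than 1 SD and 2 did not. Of the summed levels, 6 moved so and 3 did not with library size alone, an alternative chosen after seeing the data. The causes were not tested. Depth limits Pmaip1, Bik, Fas, Casp8, Xaf1, Bag3, Bcl2a1b, Birc3, Bcl2l15 and Perp in GAD67 cells, which rest on 33 or fewer counts a library. The same holds for Perp, Birc3, Xaf1, Bcl2l15 and Bcl2a1b in iGABA cells and for Hrk, Mapk10, Bik and Bcl2l15 in MEF cells.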
